A study of Mus musculus with 9 samples.

Results

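Collagen is strengthened by enzymes that act on its lysines and prolines, and their transcripts were measured here in LLC cells with and without CD47. The enzymes were taken by gene name from the deposited table of raw counts. They were the 5 lysyl oxidases Lox, Loxl1, Loxl2, Loxl3 and Loxl4, the 3 lysyl hydroxylases Plod1, Plod2 and Plod3, and the prolyl 4-hydroxylase alpha subunits P4ha1 and P4ha2, in all 10 of 50813 genes in the table. Each of the 10 names matched 1 gene.

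LLC (Lewis lung carcinoma) is a mouse lung cancer line that was grown in vitro in DMEM with fetal bovine serum and antibiotics. RNA-seq libraries were made from WT cells, from CD47 KO clone E3 and from CD47 KO clone E5, with 3 replicates of each line and 9 libraries in all. The KO clones were made by electroporating Cas9 ribonucleoproteins aimed at the Cd47 coding sequence, and each was expanded from a single cell. The WT cells are also called clonal in the description of the series. Every group is therefore 1 line or clone without a second clone of the same kind beside it, and the effect of CD47 loss and the differences between clones cannot be told apart within 1 clone. P-values here measure the spread between replicate libraries of a line. The labels name no other treatment. The KO comparisons with WT share the same WT libraries.

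Lysyl oxidases are secreted, copper-dependent enzymes that oxidize lysines and hydroxylysines of collagen and elastin, and the resulting aldehydes form the covalent crosslinks of the matrix. Lysyl hydroxylases (the Plod genes) and prolyl 4-hydroxylases act earlier, inside the endoplasmic reticulum. Hydroxylysine sets the kind of crosslink that can form and carries the sugars of collagen, and hydroxyproline keeps the triple helix stable at body temperature. In tumors these enzymes are known for stiffening the matrix, and several of them, among them P4ha1, P4ha2, Plod2, Lox and Loxl2, are known targets of the hypoxia-inducible factor HIF.

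Since HIF acts at promoters, the stretches of 250 bases just before the transcription start are shown for 3 enzymes from the RefSeq promoter table (build GRCm38.p6). They are P4ha1, which was lower than in WT in both clones, its paralog P4ha2, which was not, and Plod1, which was lower in E5. Loxl4 and Plod3 had entries too, so that 5 of the 10 enzymes matched. Capitals mark the core letters of the hypoxia response element, ACGTG or GCGTG, read on either strand (CACGT and CACGC on the printed strand are the reverse complements). All are written 5′ to 3′ in the direction of the gene.
P4ha1, chr10:59323046-59323295, plus strand: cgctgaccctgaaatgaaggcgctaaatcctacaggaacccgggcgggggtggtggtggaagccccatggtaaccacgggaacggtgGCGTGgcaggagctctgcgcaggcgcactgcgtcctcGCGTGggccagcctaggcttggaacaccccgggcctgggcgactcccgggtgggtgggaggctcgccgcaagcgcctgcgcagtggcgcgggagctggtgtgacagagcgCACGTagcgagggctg
P4ha2, chr11:54100674-54100923, plus strand: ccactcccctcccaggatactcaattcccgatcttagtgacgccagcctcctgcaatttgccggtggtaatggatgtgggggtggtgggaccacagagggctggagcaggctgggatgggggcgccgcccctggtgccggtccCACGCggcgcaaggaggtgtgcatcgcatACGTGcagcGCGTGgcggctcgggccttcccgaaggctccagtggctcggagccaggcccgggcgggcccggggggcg
Plod1, chr4:147936777-147937026, minus strand: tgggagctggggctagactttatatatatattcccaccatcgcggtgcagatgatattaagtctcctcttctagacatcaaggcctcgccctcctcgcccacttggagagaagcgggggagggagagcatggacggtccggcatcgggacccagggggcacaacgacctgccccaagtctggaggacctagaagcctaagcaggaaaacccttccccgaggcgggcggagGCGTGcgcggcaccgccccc

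The P4ha1 and P4ha2 stretches each held 3 matches, of which 1 in each was the ACGTG form. The Plod1 stretch held 1 match, of the GCGTG form, 20 bases before the start. The Plod3 stretch held 4 matches and that of Loxl4 held 1. Of the 32851 stretches of the same length in the table, 38.6% held at least 1 match to either form and 16.6% held ACGTG. For 14 of the 15 other HIF targets described below an entry was found, and 12 of these held a match. A match in such a stretch is a description of the letters and no evidence of binding. A link between these matches and the values of the enzymes was not tested.

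Total counts ran from 44257404 to 55095219 per library. Cd47 itself was lower in both clones, at 179 to 187 counts per 1000000 of the scaled library (CPM) in WT, 36.7 to 49.6 in E3 and 15.5 to 18.6 in E5, and its log2 fold change was -2.03 in E3 and -3.39 in E5. Replicate 3 of clone E3 stood apart from the other 2 libraries of its clone. The chi-square of the counts per degree of freedom was 192 and 232 for its pairs with the other E3 libraries, and 4.82 to 39.1 for every other pair of replicates. Values without that library are given for Loxl4, Plod1, Plod2 and Plod3 and for some counts of calls. Other E3 values are given with it only. The mesenchymal markers Vim, Cdh2, Zeb1, Zeb2 and Twist1 were all detected. They summed to 4343 to 4443 CPM in WT, 5067 to 6495 in E3 and 6310 to 7055 in E5, most of it Vim. The log2 fold change of Vim was 0.40 in E3 and 0.66 in E5, and those of the others ran from -0.38 to 0.25 in the clones. Ptprc, Cd3e and Itgam, markers of leukocytes, and Epcam, an epithelial marker, had at most 3 counts in any library. Cd68, a macrophage marker on the leukocyte list, had 109 to 159 counts, or 2.30 to 3.45 CPM, in every library. The summed endothelial markers reached at most 0.253 CPM. The fibroblast markers Pdgfra, Pdgfrb, Dcn and Lum, with Thy1 at 3 counts or fewer, summed to 46.8 to 62.0 CPM in WT, 44.8 to 77.6 in E3 and 17.0 to 20.2 in E5. The sum in E3 hides opposite values, with log2 fold changes of -3.13 for Dcn, 0.97 for Pdgfra, 2.07 for Pdgfrb and 1.25 for Lum. The keratins Krt8, Krt18 and Krt19 with Cdh1 and Epcam summed to 451 to 459 CPM in WT, 127 to 199 in E3 and 896 to 958 in E5. The part of these markers in the results below was not tested.

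Levels were compared between genes per length, as CPM per kilobase of exon (RPKM). In WT cells P4ha1 was the highest of the 10 enzymes at 32.4 ± 1.70 RPKM (mean ± SD, n = 3). It was followed by Plod2 at 18.1 ± 1.60, Plod3 at 17.4 ± 0.505 and Loxl3 at 15.4 ± 1.46, whose replicate ranges overlapped one another. Plod1 at 8.41 ± 0.423, Loxl4 at 5.82 ± 0.163, P4ha2 at 2.16 ± 0.311 and Loxl2 at 0.678 ± 0.0285 RPKM came next, each without overlap with its neighbors. The order rests on the exon lengths used, and replicate ranges do not cover error in those lengths. By mean CPM in WT, Plod1 (80.2) was above Loxl3 (71.9). Loxl1 and Lox were near 0. In E3 the mean of P4ha1 was still the highest, at 18.6 RPKM, but its range of 18.0 to 19.7 overlapped Plod2 (15.2 to 19.9), Plod3 (16.9 to 18.3) and Loxl3 (15.4 to 18.7). In E5, P4ha1 was again alone at the top with 25.0 to 26.5 RPKM.

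Lox, the founding enzyme of the family, had 0, 2 and 0 counts in WT, 2, 2 and 1 in E3 and 1, 2 and 0 in E5. Loxl1, which acts mainly on elastin, had 3, 2 and 3 counts in WT, 6, 7 and 1 in E3 and 4, 6 and 3 in E5. Neither passed the filter on low counts, so 8 of the 10 enzymes were tested. At a floor of 3 counts per library, Lox was at or under the detection limit in all 9 libraries. The prototype crosslinking enzyme was thus not detectable above that floor in any of the 3 lines, and Loxl3 and Loxl4 made up most lysyl oxidase transcript.

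Of the 8 tested enzymes, none was higher and 2 were lower in clone E3 than in WT at a false discovery rate (FDR) under 0.05 by edgeR's quasi-likelihood test, beside 15.7% of all 14593 tested genes higher and 14.7% lower (30.5% in either direction). In clone E5 against WT, 1 was higher and 3 were lower, beside 8.96% and 11.7% of all tested genes (20.6% in all). Between the clones, E5 against E3, 3 were higher and 3 lower, beside 14.7% and 17.2% (31.9% in all). The replicate values of the groups did not overlap for 5 of the 8 enzymes in E3 against WT, beside 45.4% of all tested genes, for 7 in E5 against WT, beside 55.4%, and for 7 between the clones, beside 44.6%. The median log2 fold change of the tested enzymes was 0.0014 in E3, -0.22 in E5 and -0.22 for E5 against E3, beside 0.010, -0.0023 and -0.011 over all tested genes. A differentially expressed gene (DEG) had in addition an absolute log2 fold change above 1, which 9.82% of tested genes reached in E3, 8.21% in E5 and 11.0% between the clones. Loxl2 was the DEG in each comparison, and the other 7 tested enzymes changed by less than that in all of them. Without replicate 3 of E3, 3 enzymes were called in E3 against WT beside 43.2% of all genes, 7 in E5 against WT beside 42% and 7 between the clones beside 44.1%.

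**Figure D1:**
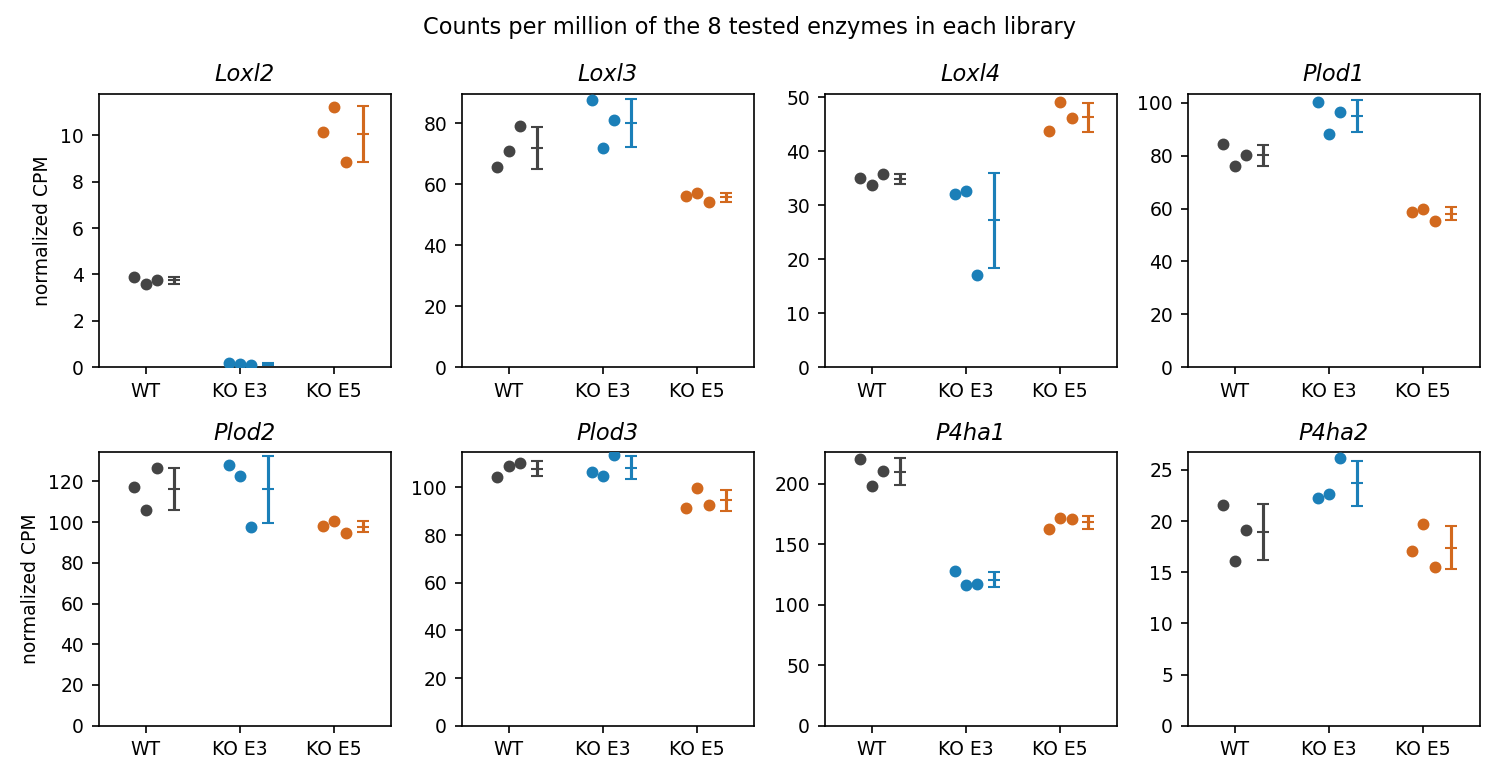
Normalized CPM of the 8 tested enzymes in each library, on axes that start at 0. Points are single libraries and the bar beside them is the mean with its SD (n = 3). Loxl2 was near 0 in all 3 E3 libraries, P4ha1 was lower in both clones than in every WT library, and replicate 3 of E3 was low for Loxl4.

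Loxl2 carried the strongest difference of the 10 enzymes, and it went opposite ways in the clones. Loxl2 is a lysyl oxidase of the scavenger-receptor type that acts on basement membrane and fibrillar collagen and is known from studies of invasion. It lies on the plus strand of chromosome 14 (GRCm39 chr14:69846517-69933283). Its normalized CPM was 3.89, 3.58 and 3.78 in the WT libraries. In E3 it was 0.160, 0.127 and 0.0880 CPM, from 8, 6 and 4 counts. In E5 it was 10.1, 11.2 and 8.84 CPM, from 470, 517 and 478 counts. The 3 groups did not overlap, and every E3 library was far under every WT library while every E5 library was above them. The log2 fold change was -4.87 ± 0.22 (SE) in E3, or 29.2-fold lower, with an FDR of 8.21e-07 by edgeR. It was 1.42 ± 0.14 in E5, or 2.68-fold higher, with an FDR of 6.87e-05 by edgeR. Between the clones the log2 difference was 6.29 ± 0.21 (FDR = 1.71e-08 by edgeR), and by the F statistic of the joint test of the 3 lines Loxl2 ranked 32 of the 14593 tested genes. All of these calls passed under every alternative that kept the gene, and it drops out only where every library must hold 10 counts.

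The genes around Loxl2 varied in direction. Of 37 tested genes within 2 Mb, 6 were higher and 10 lower in E3, beside 15.7% and 14.7% of all tested genes, with a median log2 fold change of -0.12. In E5, 3 were higher and 7 lower, beside 8.96% and 11.7% of all tested genes, with a median of -0.10. R3hcc1, which shares 943 exonic bases with Loxl2 on the opposite strand, had a log2 fold change of 0.61 in E3 (FDR = 0.00151 by edgeR), against the direction of Loxl2, and 0.22 in E5 (FDR = 0.154). Of the other 5 nearest tested genes, Slc25a37 (-0.71, FDR = 0.00333), Egr3 (-0.58, FDR = 0.00721) and Tnfrsf10b (-0.31, FDR = 0.037) were lower in E3. Between the clones, Egr3 was higher in E5 than in E3 (0.53, FDR = 0.0105 by edgeR). R3hcc1 (-0.38, FDR = 0.0157) and Chmp7 (-0.25, FDR = 0.0428) were lower in E5 than in E3, against the direction of Loxl2. The strand setting of the counting is not given in the sources used here, so reads in the shared stretch could be of either gene.

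Over the 9 libraries, the genes whose log2 CPM followed Loxl2 most closely were Nefl (Pearson r of 0.998), Prickle3 (0.997), Etl4 (0.997), Scn9a (0.994) and Itpkb (0.994), chosen by that correlation among non-members with an average log2 CPM above 1. The points of each correlation fall in 3 lines and share libraries and depth, so r is a description of likeness. Nefl, a neurofilament subunit, was at 43.4 to 49.5 CPM in WT, 3.49 to 4.18 in E3 and 129 to 144 in E5. Scn9a, a sodium channel subunit, was at 5.59 to 6.59 CPM in WT, 0.0220 to 0.160 in E3 and 13.9 to 18.0 in E5. Etl4 was at 5.02 to 5.27 CPM in WT, 0 to 0.100 in E3 and 12.5 to 13.2 in E5. The order E3, WT, E5 with no overlap held for each of the 6 genes, which the choice by correlation with Loxl2 favors.

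**Figure D2:**
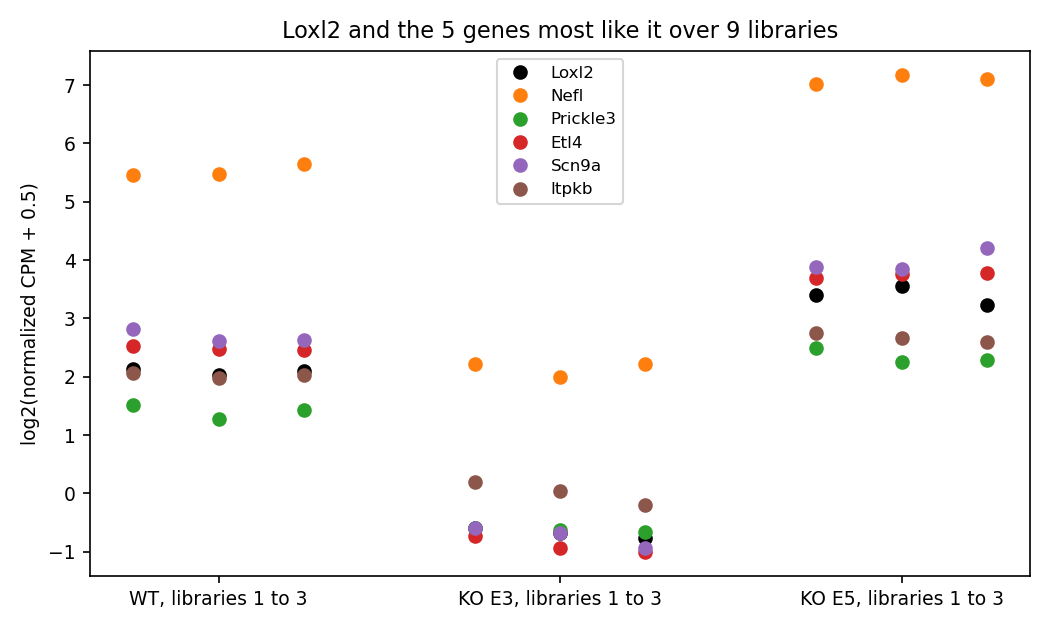
Level of Loxl2 and of the 5 genes most like it, as log2 of normalized CPM plus 0.5, in the 3 libraries of each line. Each point is 1 library. All 6 genes were lowest in E3 and highest in E5, an order favored by choosing the 5 for their correlation with Loxl2.

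Loxl3 was the main lysyl oxidase transcript, with 70.2 ± 1.86% of the family's summed RPKM in WT (n = 3). It is a lysyl oxidase of the scavenger-receptor type too, known for its part in palate and spine development. It measured 65.5, 70.9 and 79.1 CPM in WT, 87.6, 71.8 and 81.0 in E3 and 56.0, 57.1 and 54.2 in E5. The E3 libraries overlapped WT, whereas every E5 library lay below both. Its log2 fold change was 0.16 ± 0.11 in E3 (FDR = 0.291 by edgeR), -0.37 ± 0.11 in E5 (FDR = 0.0335) and -0.52 ± 0.11 for E5 against E3 (FDR = 0.00404). The E5 call against WT was lost in 7 of 16 alternatives, 5 of them those without WT replicate 2 (FDR = 0.0966), WT replicate 3 (0.145) and E5 replicates 1, 2 and 3 (0.0961, 0.0955 and 0.103). Loxl3 shares 1182 exonic bases with Htra2 on the opposite strand, and reads there could be of either gene.

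Loxl4, the other abundant member, is also of the scavenger-receptor type. It measured 35.0, 33.8 and 35.7 CPM in WT, 32.0, 32.5 and 17.1 in E3 and 43.6, 49.1 and 46.1 in E5. Every E5 library was above every WT library and every E3 library below, though 2 of the E3 libraries were close to WT and replicate 3 was well under them. The log2 fold change was -0.36 ± 0.20 in E3 (FDR = 0.211 by edgeR) and 0.41 ± 0.20 in E5 (FDR = 0.181). Between the clones it was 0.77 ± 0.20 (FDR = 0.0152), and without E5 replicate 2 that FDR was 0.056. Without E3 replicate 3 the log2 fold change was -0.11 in E3 (FDR = 0.233), 0.42 in E5, which then passed (FDR = 0.000283), and 0.53 between the clones (FDR = 0.000108).

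The summed RPKM of the 5 lysyl oxidases was nearly level, at 20.6 to 23.6 in WT, 20.2 to 24.1 in E3 and 20.9 to 22.5 in E5, and the ranges overlapped. The makeup of the sum differed. Loxl2 was 3.11 ± 0.273% of it in WT, 0.103 ± 0.0214% in E3 and 8.46 ± 0.714% in E5. Loxl3 was 70.2 ± 1.86%, 79.0 ± 6.19% and 55.5 ± 1.19%, and Loxl4 was 26.7 ± 1.59%, 20.8 ± 6.08% and 35.9 ± 1.26%. In E5 the share of Loxl3 was below, and that of Loxl2 and Loxl4 above, every library of the other lines. The shares of a family depend on each other, and no test was run on them.

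**Figure D3:**
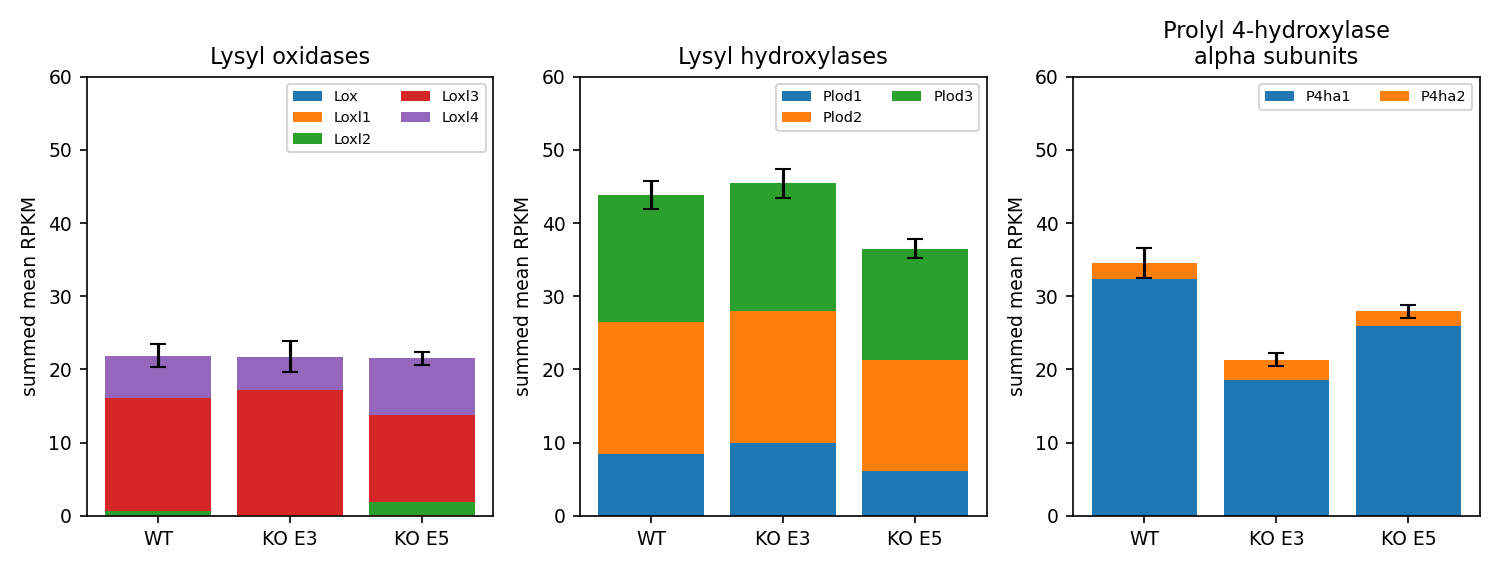
Summed mean RPKM of each enzyme family by line, with the share of each member as a colored segment and the SD of the sum over 3 libraries as the black bar. The mean lysyl oxidase sums were 21.5 to 21.9 RPKM in the 3 lines, and the sum of P4ha1 and P4ha2 was lowest in E3.

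The lysyl hydroxylases were lower in E5 in total, at 35.4 to 37.9 RPKM beside 42.0 to 45.8 in WT and 43.6 to 47.6 in E3. One of the 3, Plod1, passed the test. Plod1 hydroxylates lysines of the triple helix, and its loss causes the kyphoscoliotic form of Ehlers-Danlos syndrome. It measured 84.3, 76.2 and 80.2 CPM in WT, 100.3, 88.2 and 96.6 in E3 and 58.8, 59.9 and 55.3 in E5. The groups did not overlap, with E3 highest and E5 lowest. The log2 fold change was 0.24 ± 0.091 in E3 (FDR = 0.0652 by edgeR), -0.47 ± 0.091 in E5 (FDR = 0.0048) and -0.71 ± 0.091 for E5 against E3 (FDR = 0.000255). The calls for E5 held in all 16 alternatives, and the E3 value passed in 4 of 16, among them without E3 replicate 3 (0.23, FDR = 0.0262).

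Plod2, which hydroxylates the telopeptides and so sets the type of crosslink, measured 117, 106 and 126 CPM in WT, 128, 123 and 97.5 in E3 and 98.2, 100.5 and 94.8 in E5. The log2 fold change was -0.0030 in E3, with a 95% interval of -0.27 to 0.26 and an FDR of 0.989 by edgeR. It was -0.25 in E5 against WT (interval -0.51 to 0.011, FDR = 0.166) and -0.25 for E5 against E3 (FDR = 0.135). Every E5 library was below every WT library, and the lowest E3 library, replicate 3, lay among those of E5. Without that library the value was 0.11 in E3 against WT (FDR = 0.288), -0.25 in E5 against WT (FDR = 0.0126) and -0.35 for E5 against E3 (FDR = 0.00264). Plod2 shares 503 exonic bases with B430319G15Rik on the opposite strand, and reads there could be of either gene.

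Plod3, which also adds sugars to hydroxylysine, measured 104, 109 and 110 CPM in WT, 106, 105 and 114 in E3 and 91.6, 99.7 and 92.5 in E5. It was level between WT and E3, with a log2 fold change of 0.0058 and an interval of -0.18 to 0.20 (FDR = 0.971 by edgeR). In E5 every library was below those of the other lines, with a log2 fold change of -0.19 (interval -0.38 to 0.00040, FDR = 0.15) against WT that did not pass the test. Without E3 replicate 3 that FDR was 0.0207. Plod3 shares 575 exonic bases with Znhit1 on the opposite strand, and reads there could be of either gene.

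P4ha1 was the enzyme lower in both clones. Together with P4hb, the protein disulfide isomerase that serves as the beta subunit, it forms the collagen prolyl 4-hydroxylase, and it is the main catalytic subunit in most cells. It lies on the plus strand of chromosome 10 (GRCm39 chr10:59159118-59209126). P4ha1 measured 220, 198 and 211 CPM in WT, 128, 117 and 117 in E3 and 162, 172 and 171 in E5. No 2 groups overlapped, and E5 lay between E3 and WT. The log2 fold change was -0.80 ± 0.088 in E3, or 1.74-fold lower, with an FDR of 0.000144 by edgeR. It was -0.32 ± 0.088 in E5, or 1.25-fold lower (FDR = 0.0271), and 0.48 ± 0.088 for E5 against E3 (FDR = 0.00231). The E3 call and the difference between the clones held in all 16 alternatives. The E5 call against WT held in 8 of 16 and was lost without any 1 library of WT (FDR of 0.115, 0.0625 and 0.0933 without replicates 1, 2 and 3) or of E5 (0.105, 0.0892 and 0.0664). Its log2 fold change stayed between -0.36 and -0.29.

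The tested genes within 2 Mb of P4ha1 were also lower in E3 more often than higher. Of 25 such genes 14 were lower and 1 higher, with a median log2 fold change of -0.44, beside 14.7% lower among all tested genes. In E5, 5 were lower and 4 higher, beside 11.7% and 8.96% of all tested genes, with a median of -0.16. For the other tested enzymes the medians of the genes within 2 Mb in E3 ran from -0.20 around Loxl3 to 0.40 around Plod2, where 5 genes were tested. The part of the region in the fold change of P4ha1 was not tested.

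P4ha2, the other alpha subunit among the 10 enzymes, was much the lesser of the pair. It measured 21.5, 16.1 and 19.1 CPM in WT, 22.2, 22.7 and 26.2 in E3 and 17.1, 19.7 and 15.5 in E5. Every E3 library was above every WT library, and the ranges of E5 and WT overlapped. The log2 fold change was 0.33 ± 0.14 in E3 (FDR = 0.0959 by edgeR), -0.12 ± 0.14 in E5 (FDR = 0.594) and -0.45 ± 0.14 for E5 against E3 (FDR = 0.0298). The last call was lost without E5 replicate 1 (FDR = 0.0832) or 3 (0.118). With P4ha1 lower and P4ha2 not, P4ha2 was 12.7 ± 1.39% of the summed RPKM of both in E3, beside 6.24 ± 0.541% in WT and 7.12 ± 0.772% in E5. The sum was 32.5 to 36.5 RPKM in WT, 20.6 to 22.3 in E3 and 27.0 to 28.7 in E5, without overlap. It leaves out a further alpha subunit, P4ha3, whose mean was 1.36 RPKM in WT, 1.93 in E3 and 2.36 in E5. The mean of P4ha2 was 2.16, 2.71 and 1.99 RPKM in the same order.

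The beta subunit P4hb did not follow P4ha1 in E3. It was chosen here for its role, with its values known. It measured 812, 754 and 739 CPM in WT, 989, 938 and 1097 in E3 and 621, 610 and 578 in E5, with no overlap between the groups. Its log2 fold change was 0.39 in E3 (FDR = 0.012 by edgeR), where P4ha1 fell, and -0.35 in E5 (FDR = 0.0275). P4hb also serves as a folding enzyme apart from prolyl 4-hydroxylase.

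**Figure D4:**
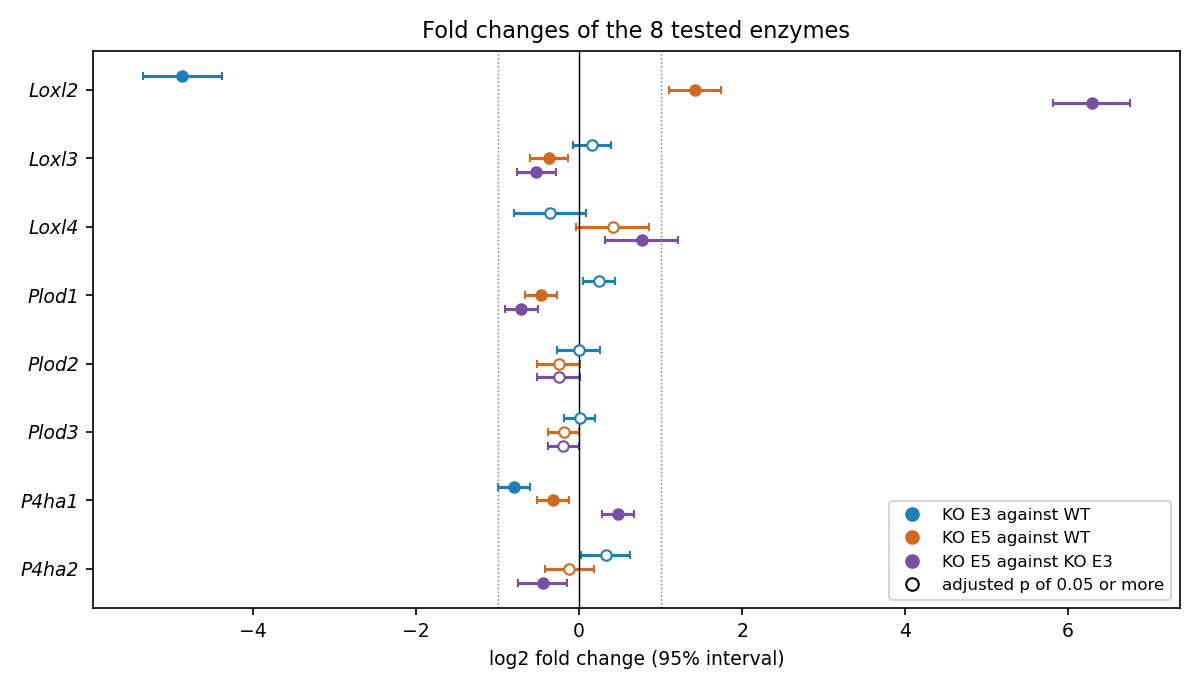
Log2 fold changes of the 8 tested enzymes with 95% intervals, for E3 against WT, E5 against WT and E5 against E3. Filled points passed an FDR of 0.05 and dotted lines mark a log2 fold change of 1 in either direction. Loxl2 alone lay past the dotted lines, below in E3 and above in E5, and P4ha1 was the enzyme that passed below 0 in both clones.

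The other enzymes and chaperones of collagen modification and folding were higher in part in E3 and lower in part in E5. Of the 15 genes listed, 14 were tested. In E3, 4 were higher and 1 lower with a median log2 fold change of 0.19, beside 30.5% of all tested genes called. The number called in E3 was thus near the share of all tested genes. In E5, 1 was higher and 6 lower with a median of -0.30, beside 20.6%. For E5 against E3, none was higher and 9 were lower with a median of -0.75, beside 31.9%. In E3 the called genes with the highest values were Fkbp14, a prolyl isomerase of the endoplasmic reticulum (1.46), and P3h4, a partner of the lysyl and prolyl hydroxylation complexes (0.83), and those with the lowest were Tmem38b, an ion channel of the endoplasmic reticulum (-0.77), and Crtap, a partner of prolyl 3-hydroxylase (0.33). In E5, P3h2, a prolyl 3-hydroxylase, fell by 1.68 on the log2 scale, from 15.4 to 16.9 CPM in WT to 4.55 to 5.54. P4ha3, another alpha subunit of prolyl 4-hydroxylase that is not among the 10 enzymes, was at 4.01 to 6.08 CPM in WT and 6.58 to 10.5 in E5, with a log2 fold change of 0.79 (FDR = 0.0249 by edgeR). Tmem38b, whose loss causes a recessive form of osteogenesis imperfecta, had 0 counts in all 3 E5 libraries and 3.22 CPM on average in WT, at least 52.4-fold lower at a floor of 3 counts per library. The number called in E3 was 2 without WT replicate 2, 3 without WT replicate 3 and 8 without E3 replicate 3, and in E5 it was 4 without WT replicate 2 or E5 replicate 2. Without E3 replicate 3 the share of all tested genes called in E3 was higher too.

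Of 8 genes of procollagen processing, which trim the propeptides before crosslinking, 5 were tested. One was higher and 1 lower in E3, beside 30.5% of all tested genes called, and none higher and 3 lower in E5, beside 20.6%. Adamts14, a procollagen N-proteinase, was lower in both clones, at -1.58 in E3 and -1.18 in E5 on the log2 scale. Pcolce, the enhancer of the C-proteinase, rose by 0.76 in E3. Bmp1, the C-proteinase that also activates lysyl oxidase, fell by 0.38 in E5. Adamts3 had 1 count over the 3 E5 libraries and 153 over those of WT, a ratio of 0.00646 with an exact 95% counting interval of 0.000162 to 0.0365.

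Among the substrates, the median of the fibrillar collagens leaned the same ways. Of 10 fibrillar collagen chains and elastin, 8 were tested. In E3, 5 were higher and 1 lower (median log2 fold change 0.67), beside 30.5% of all tested genes called. In E5, none was higher and 3 were lower (median -0.78), beside 20.6%. The values turn on low transcripts in part. Col3a1, by far the highest at 2654 to 2991 CPM in WT, rose by 0.50 in E3 to 3502 to 4456 CPM. It did not fall in E5, at 3061 to 3397 CPM, with a log2 fold change of 0.21 that did not pass (FDR = 0.24 by edgeR). In E5, 5 values of the list were negative and 3 positive. The E5 median lay between Col5a1 (-0.85) and Col1a2 (-0.70), the latter at 0.23 to 0.40 CPM in WT. Col2a1, at 0.15 to 0.25 CPM in WT, was at 3.17 to 4.84 in E3. Col5a1, at 371 to 421 CPM in WT, fell by 0.85 in E5 to 193 to 234 CPM. Col5a2 fell in both clones, from 1.11 to 1.65 CPM in WT to 0.211 to 0.286 in E3 and 0.0555 to 0.215 in E5. Of the 8 genes for copper supply and matrix partners of lysyl oxidase, 6 were tested. Efemp2, a fibulin that brings lysyl oxidase to elastin, rose by 0.73 in E3, and Slc31a1, the copper importer, fell by 0.50 in E5. No other gene of that list passed in either clone against WT, beside 30.5% of all tested genes called in E3 and 20.6% in E5. Without E3 replicate 1 the list had 3 calls in E3, and without E3 replicate 3 it had 2 in E3 and 3 in E5. Shares of all tested genes under these settings are not set beside the counts.

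Of 15 other known HIF targets, all tested, 2 were higher and 7 lower in E3 (median log2 fold change -0.10), beside 30.5% of all tested genes called. In E5, 4 were higher and 5 lower (median -0.15), beside 20.6%. For E5 against E3, 6 were higher and 1 lower (median 0.33), beside 31.9%. In E3 the lowest were Ero1a, a disulfide-forming oxidase (-1.75), and Vegfa, the angiogenic growth factor (-1.37), and the highest were Adm, the vasodilator adrenomedullin (0.94), and Egln1, a HIF prolyl hydroxylase (0.41). Ero1a measured 332 to 400 CPM in WT, 78.0 to 126 in E3 and 185 to 232 in E5, the order in which P4ha1 stood. The means of Vegfa, Slc2a1, Ndrg1 and Kdm3a stood in that order too, and those of the other listed targets did not. A link of this order to P4ha1 was not tested. In E5 the lowest were Car9 (-1.06), at 0.52 to 0.78 CPM in WT, and Adm (-0.75), and the highest were Ankrd37 (1.00) and Pgk1, a glycolytic enzyme (0.60). The 9 calls in E5 against WT fell to 4 without any 1 of the WT libraries, to 2 without E5 replicate 1 and to 5 without E5 replicate 2. Shares of all tested genes called without those libraries are not set beside these counts.

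**Figure D5:**
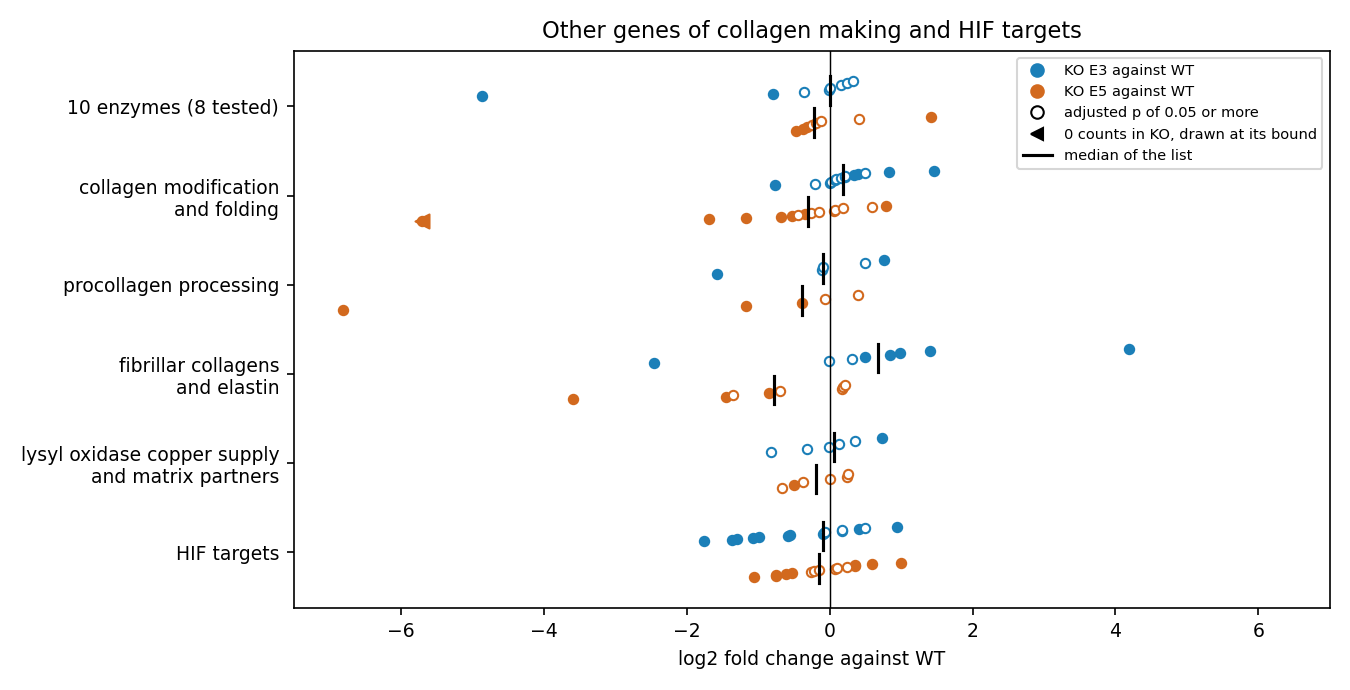
Log2 fold changes against WT of the 10 enzymes and of the other lists, 1 point a gene, with E3 in blue above and E5 in orange below. Filled points passed an FDR of 0.05, black bars are list medians, and the triangle is Tmem38b at the bound set by its 0 counts in E5. Collagen modification genes and fibrillar collagens had medians above 0 in E3 and below 0 in E5.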

How the data were processed

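RNA-seq libraries of 3 LLC lines were grouped by the labels, with 3 replicates each. The authors used FastQC for read quality, Trimmomatic for adapters and low-quality bases and STAR for alignment to GRCm39. The deposited values are raw counts per gene, neither normalized nor pooled. The authors compared lines with DESeq2. How reads were counted (tool, strand, annotation release) is not given in the sources used here. The library kit was directional and selected polyA RNA.

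From the deposited counts, edgeR (version 4.0.16, R 4.3.3) was run with TMM scaling and filterByExpr (a count of 10 and a total of 15 as minimums), and 14593 of 50813 genes were kept. All 9 libraries entered 1 quasi-likelihood fit with no covariate, and p-values were adjusted by Benjamini-Hochberg over all tested genes. A gene passed at an FDR under 0.05, and DEGs had an absolute log2 fold change above 1 besides, the thresholds of the study's methods. Every FDR in the text is from this test unless another setting is named. A standard error is the size of the fold change (log2) divided by the root of its F statistic. The biological coefficient of variation was 14.8%. On simulated counts of 14349 genes with 200 changed, 191 were recovered with 4 false calls for E3 against WT, and 194 with 7 for E5 against WT. Every planted change was above 1 on the log2 scale, and far fewer genes changed than were called in the data. The simulated spread followed the fitted trend and no library stood apart. These rates therefore do not cover smaller changes or the effect of E3 replicate 3.

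CPM are per 1000000 of TMM-scaled library size. RPKM divide them by the union of exons in GENCODE M39, whose gene spans differ slightly from those deposited, and levels between genes rest on those lengths. Where symbols were shared by several of the deposited genes (375), the symbol stayed with the most counts. Depth leaves counting error small above a few CPM. Counts are reads without molecular identifiers, so floors and intervals of counts cover counting error only.

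The enzymes and the lists were chosen with earlier results of these data known. Named genes are the 10 enzymes, Cd47, P4hb, in each list the 2 lowest and 2 highest fold changes among those that passed, of which not all are reported, and the 5 genes most like Loxl2, the enzyme with the largest F statistic of the 3-line test. Also named are the markers, genes near Loxl2, genes that overlap the enzymes, and list genes called between the clones. Kdm3a is named because its means stood in the order of P4ha1. Alternatives were other scalings, DESeq2 (version 1.42.0), other filters, a replicate block, only the 2 groups compared, and leaving out each library.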

Additional observations from a re-analysis of the deposited data

Results flagged for a closer look

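Each gene below was called because its log2 fold change differed between the clones by edgeR's test of E5 against E3 (FDR under 0.05), which 31.9% of all tested genes did. All values are log2 differences of E5 minus E3.

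Among the 10 enzymes these were Loxl2 (6.29), Loxl4 (0.77) and P4ha1 (0.48), higher in E5, and Plod1 (-0.71), Loxl3 (-0.52) and P4ha2 (-0.45), higher in E3. Cd47 differed by -1.36. In the lists of collagen making, the beta subunit P4hb differed by -0.74, P3h2 by -1.69 (0.0016 in E3 against WT and -1.68 in E5), P3h4 by -0.77, Ppib by -0.65, Fkbp14 by -0.87, Fkbp10 by -1.20, Serpinh1 by -0.84, P3h1 by -0.75, Bmp1 by -0.29 and Adamts14 by 0.40. The fitted values of Tmem38b (-9.51) and Adamts3 (-7.32) rest on 0 and 1 counts in E5 and depend on the prior count. Tmem38b was at least 30.7-fold lower in E5 than in E3 at the floor of 3 counts per library. Col1a1 differed by -2.44, Col1a2 by -2.11, Col2a1 by -5.55, Col5a1 by -1.16, Col5a3 by -0.67, Slc31a1 by -0.50 and Efemp2 by -0.73. Among HIF targets, Ero1a (1.00), Ndrg1 (1.15), Vegfa (0.75), Pgk1 (0.70), Pdk1 (0.65) and Slc2a1 (0.46) were higher in E5, and Adm (-1.69) was higher in E3.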

How the results depend on the processing

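None of the 8 tested enzymes changed direction past the threshold. Over these enzymes, their comparisons and the alternatives, 348 values kept their side of the threshold, 13 passed only in the alternative and 20 only as reported. The count of enzymes called in E5 against WT was the least stable. It was 4 as reported, beside 20.6% of all tested genes, and 2 with no filter on low counts, beside 11.4%. It was 7 with only the 2 groups compared, where the E3 libraries no longer enter the spread. The share of all genes called moved with the setting too, so these counts do not describe the enzymes alone. Leaving out 1 library gave 2 to 7 called in E5 against WT (7 without E3 replicate 3, 2 without WT replicate 2 or 3 or any E5 library, and 3 without WT replicate 1), 2 to 3 in E3 against WT and 5 to 7 for E5 against E3. In E3 against WT, 1 was called, beside 30.5% of all genes, when every library had to hold at least 10 counts, since Loxl2 is then not tested. Upper-quartile scaling moved the median of all genes to -0.103 for E5 against E3, and Plod2 (-0.33) and Plod3 (-0.29) then passed. Of 240 counts of list genes under the alternatives, 27 moved by over 1.5 times, most often HIF targets in E5 against WT (9 as reported, 2 to 5 in 6 alternatives, 5 with the replicate block) and procollagen processing for E5 against E3 (3 as reported, 1 in 7). These list counts are given without the share of all genes called in the same alternative.

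Same-numbered libraries did not deviate together: their correlations ran from -0.254 to 0.0993 and those of other libraries from -0.265 to 0.261, and 1 library matched best with its own number. With the replicate number as a block, 2 enzymes were called in E5 against WT, beside 15.8% of all tested genes, and 2 in E3 against WT, beside 25.1%. For E5 against E3, 5 were called, beside 26.6%. Loxl3 and P4ha1 in E5 against WT (FDR of 0.0774 and 0.0747 by edgeR) and P4ha2 between the clones (0.064) then passed the threshold no longer. Depth limits Lox and Loxl1, whose counts allow no comparison.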
